A study of Mus musculus with 2 samples.

Results

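Klf2, Klf3, Klf6 and Klf13, which encode 4 Kruppel-like zinc finger transcription factors, and S1pr1, which encodes a receptor for sphingosine 1-phosphate (S1P), were followed in mouse thymocytes sorted as invariant natural killer T (iNKT) cells. They are 5 of the 32285 genes of the table and were chosen by name, with earlier results of these data known. The study sorted stage 0 iNKT cells (TCRβ+ CD1d tetramer+ CD24+ NK1.1-) and stage 3 iNKT cells (TCRβ+ CD1d tetramer+ NK1.1+ CD24- CD44+) from pooled thymi of 4 Ctrl mice and of 4 T-KO mice, each sort done in 2 parallel replicas. T-KO mice lack Kidins220, a membrane scaffold protein, where LckCre, driven by the proximal Lck promoter from the early double negative stage on, has deleted its floxed alleles. The GEO labels give C57BL/6 as the background and no age for the mice of these pools. Hashtag antibodies marked the 8 populations, which gave 1 droplet library with reads from the 5′ end of transcripts, and 1 hashtag library.

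The hashtag counts lay on the rows numbered 11 to 18 of the table, and the labels and methods do not tie these numbers to the labelled hashtags. No row was therefore assigned to a stage or a genotype, and T-KO was not compared with Ctrl. Both genotypes are among the cells described, and rows of 1 genotype may share their pooled mice, so p-values measure the spread between hashtag rows, which may be technical. Of 16179 barcodes, 10007 had at least 1000 genes, at most 5% mitochondrial UMIs (unique molecular identifiers, which count captured transcripts) and at least 80% of at least 10 hashtag UMIs on 1 of the 8 rows. They held a median of 3828 UMIs, and a row had 577 to 2162 cells and 2283162 to 14601545 summed UMIs. The 4 odd rows (11, 13, 15 and 17) gave 4249 cells and the 4 even rows (12, 14, 16 and 18) gave 5758. Cd24a, the gene of the marker that the stage 0 gate retains, had 313 to 365 CPM (UMIs of the gene per 1000000 UMIs) in the odd rows and 23.3 to 34.2 CPM in the even rows. Klrb1c, which encodes NK1.1, had 4.78 to 6.57 CPM in the odd rows and 328 to 444 CPM in the even rows. Kidins220 had 13.9 to 21.0 CPM in the odd rows and 17.5 to 35.2 CPM in the even rows. Reads from the 5′ end need not cover the deleted exons, so these counts check no label, and they were not used to assign a row.

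Odd-row cells were divided by the first match of at least 2 Cd79a UMIs (Cd79a+, 810 cells), at least 5 Cst3 UMIs (Cst3+, 972 cells), at least 1 Rag1 UMI (Rag1+, 418 cells) and at least 2 Ikzf2 UMIs (Ikzf2+, 1106 cells), which left 943 remaining cells. Even-row cells were divided into Ccl5-high cells with at least 4 Ccl5 UMIs (1051 cells), Izumo1r+ cells with at least 2 Izumo1r UMIs and no Ccl5 UMI (538 cells) and 4169 other cells. The markers bore out part of these names. B cell markers, which include Cd79a itself, summed to 5289.8 to 8949 CPM in Cd79a+ cells and to at most 369.6 CPM in each other class, and the 8 markers of double positive thymocytes, with the gate gene Rag1 among them, summed to 1391 to 2139.5 CPM in Rag1+ cells, 909 to 1112 CPM in the remaining cells and 439 to 488 CPM in Ikzf2+ cells. Cd79a+ and Cst3+ cells, with markers of B cells and of myeloid and dendritic cells, made up 41.9% of the cells of the odd rows. Trav11, the gene segment of the invariant iNKT receptor chain, had 39.5 to 56.5 CPM in the even rows and at most 1.70 CPM in any row of the Ikzf2+ cells. Zbtb16, the gene of PLZF, had 64.7 to 74.7 CPM in the even rows and 3.41 to 17.8 CPM in Ikzf2+ cells. The 9 stage 0 iNKT markers as a list, with these 2 genes and the gate gene Ikzf2 among them, summed to 2464 to 2673 CPM in Ikzf2+ cells, 888.8 to 999.9 CPM in Rag1+ cells and 348 to 406 CPM in the even rows. The markers thus went both ways, and the Ikzf2+ class is called by its rule.

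KLF2 is known to drive the genes that let mature thymocytes leave the thymus, among them S1pr1, whose product senses the S1P gradient toward blood and lymph. CD69 binds this receptor and holds it inside the cell, and FOXO1 and the ERK5 to MEF2 route feed into Klf2 transcription. KLF3 is a repressor that recruits CtBP corepressors, KLF6 is an early response factor with many inducers, and KLF13 is known as a regulator of Ccl5 in T cells. Double positive thymocytes have little KLF2 and S1P receptor, and both are gained as thymocytes mature.

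The sequences upstream of the genes are shown because KLF proteins bind CACCC boxes and MEF2 proteins an AT-rich site. The windows come from RefSeq on GRCm38.p6, which held 4 of the 5 genes. The part of each window before the first annotated transcript base is printed. Klf2 lies at chr8:72319033-72321656 on the plus strand, and its sequence covers chr8:72318812-72319032. Klf3 lies at chr5:64803388-64832901 on the plus strand, with its sequence from chr5:64803271-64803387. Klf6 lies at chr13:5861482-5870394 on the plus strand, with its sequence from chr13:5861239-5861481. Klf13 lies at chr7:63886351-63938915 on the minus strand, with its sequence from chr7:63938916-63939165 read on that strand. S1pr1 lies at chr3:115710433-115715072 on the minus strand. Gene positions are those of GENCODE M21. Capitals mark the MEF2 consensus in Klf2 and CACCC, or GGGTG on the other strand, in Klf3 and Klf13.
Klf2: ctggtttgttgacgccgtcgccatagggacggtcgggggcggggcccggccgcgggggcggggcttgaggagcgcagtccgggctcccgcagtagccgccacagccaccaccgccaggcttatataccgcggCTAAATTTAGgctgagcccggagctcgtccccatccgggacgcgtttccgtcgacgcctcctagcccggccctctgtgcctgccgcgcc
Klf3: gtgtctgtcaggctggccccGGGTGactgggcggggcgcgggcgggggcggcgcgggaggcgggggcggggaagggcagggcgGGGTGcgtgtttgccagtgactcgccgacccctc
Klf6: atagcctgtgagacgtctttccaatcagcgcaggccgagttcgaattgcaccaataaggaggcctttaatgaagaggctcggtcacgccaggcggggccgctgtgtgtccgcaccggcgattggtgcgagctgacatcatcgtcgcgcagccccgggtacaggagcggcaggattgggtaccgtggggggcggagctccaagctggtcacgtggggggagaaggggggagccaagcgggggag
Klf13: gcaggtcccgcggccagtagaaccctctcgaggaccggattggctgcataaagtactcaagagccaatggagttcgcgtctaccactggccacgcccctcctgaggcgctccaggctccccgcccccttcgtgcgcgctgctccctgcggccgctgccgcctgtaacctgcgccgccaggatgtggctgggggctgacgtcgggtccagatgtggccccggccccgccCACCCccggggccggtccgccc

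The MEF2 consensus was present in the window of Klf2 alone among the 4 genes, and in 3.19% of all 32851 windows of 300 bases (250 before to 50 after the RefSeq start, both strands). It spans -118 to -109 with the RefSeq start counted as 0. CACCC was found 5 times in the window of Klf3, 1 time each in those of Klf2 and Klf13 and 0 times in that of Klf6, counted over the whole 300 bases. The sequences printed, which stop at the first transcript base, hold 2 of the 5 in Klf3, the 1 in Klf13 and not the 1 in Klf2. Of all windows, 57.5% held CACCC. The core of the box bound by SP1, GGGCGG, was found in all 4 windows and in 35.7% of all windows. GTAAACA, a site of FOXO proteins, was found in none of the 4 and in 3.65% of all windows. These motifs can overlap each other, and a match describes the letters only.

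Klf2 was lowest in Rag1+ cells and highest in Ccl5-high cells. In Rag1+ cells its level was 12.3, 11.4, 10.2 and 8.53 CPM in rows 11, 13, 15 and 17, from 59 UMIs in all. The remaining cells had 50.3, 62.1, 34.7 and 59.1 CPM, and the Ikzf2+ cells 127, 135, 115 and 117 CPM. Each of these classes lay above the one before it in 4 of 4 rows, and no row values overlapped. Among the non-T cell classes of these rows, Cst3+ cells had 83.7 to 119 CPM, which overlapped with Ikzf2+ cells, and Cd79a+ cells 147 to 234 CPM. In the even rows (12, 14, 16 and 18) Izumo1r+ cells had 237, 282, 181 and 182 CPM of Klf2. The other cells of these rows had 402, 442, 345 and 384 CPM, and the Ccl5-high cells 576, 628, 504 and 603 CPM. These classes too were in the same order in every row, without overlap. Fewer Klf2 transcripts per cell and fewer cells that hold any cannot be told apart in such sums.

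Counted per cell at equal depth, with each cell thinned to 2000 UMIs, 64.0% of 1038 Ccl5-high cells had a Klf2 UMI (95% Clopper-Pearson interval 61.0 to 66.9%, counting error only, as for all such intervals here). The share was 27.1% of 524 Izumo1r+ cells (23.3 to 31.1%) and 3.86% of 389 Rag1+ cells (2.17 to 6.28%). Without thinning the shares were 79.4, 40.5 and 12.2%, at median depths of 3533, 3783.5 and 13561.5 UMIs. Thinning left out 13, 14 and 29 cells of these classes. Of Ikzf2+ cells 22.0% had a Klf2 UMI (19.6 to 24.7%), and of the remaining cells 10.4% (8.39 to 12.7%). The order of these 5 classes by share was that of their CPM levels.

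S1pr1 was sparse, with 401 UMIs in the even rows and 266 in the odd rows. Its level in Ccl5-high cells was 29.7, 29.5, 25.6 and 30.8 CPM in rows 12, 14, 16 and 18. In the other cells of these rows it was 15.2, 15.4, 22.9 and 21.4 CPM, below the Ccl5-high cells of every row. In Izumo1r+ cells it was 5.21, 11.8, 27.4 and 16.1 CPM, from 2, 7, 10 and 14 UMIs, and row 16 lay above the Ccl5-high cells of the same row. In rows 11, 13, 15 and 17 the Ikzf2+ cells had 8.48, 15.9, 12.7 and 18.2 CPM and the remaining cells 4.91 to 6.54 CPM. The Rag1+ cells held 1 to 3 S1pr1 UMIs per row, 8 in all, and 0.948 to 3.07 CPM. Cd79a+ cells had 10.9 to 20.7 CPM, within the span of Ikzf2+ and Izumo1r+ cells.

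Cst3+ cells, as myeloid and dendritic cells, served as the reference for free S1pr1 transcripts in the droplets. At 2000 UMIs per cell, S1pr1 was found in 0 of 970 Cst3+ cells, with a 95% Clopper-Pearson upper limit of 0.380%. It was found in 5.59% of Ccl5-high cells (4.27 to 7.16%), 1.91% of Izumo1r+ cells (0.919 to 3.48%), 4.18% of Ikzf2+ cells (3.05 to 5.57%) and 0.514% of Rag1+ cells (0.0623 to 1.84%). The interval of the Rag1+ cells overlapped with that reference, while those of the other 3 classes lay above it. Before thinning, Cst3+ cells were deeper (median 10487 UMIs) than Ccl5-high (3533), Izumo1r+ (3783.5) and Ikzf2+ cells (5517.5). Thinning thus keeps a smaller part of any free transcripts in Cst3+ cells, which may set the reference too low. Unthinned shares were 0.412% for Cst3+ cells at a median of 10487 UMIs, 9.51% for Ccl5-high cells, 5.02% for Izumo1r+ cells, 7.69% for Ikzf2+ cells and 1.91% for Rag1+ cells.

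Klf3 followed another order than Klf2 in the odd rows. Rag1+ cells had 104, 71.3, 91.4 and 65.4 CPM of Klf3 in rows 11, 13, 15 and 17, and Ikzf2+ cells 46.6, 48.1, 48.2 and 43.7 CPM, without overlap. The remaining cells had 74.5, 70.2, 49.0 and 50.1 CPM, below the Rag1+ cells and above the Ikzf2+ cells of every row. In rows 12, 14, 16 and 18 Klf3 was 93.8, 144, 68.4 and 79.5 CPM in Izumo1r+ cells, and 191, 235, 105 and 113 CPM in Ccl5-high cells. Rows 12 and 14 were higher than rows 16 and 18 in all 3 classes of the even rows in every case, and the row values of the classes overlapped.

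Klf6 had 211, 333, 148 and 236 CPM in Izumo1r+ cells of rows 12, 14, 16 and 18, and 269, 356, 233 and 295 CPM in Ccl5-high cells. Row 14 was the highest and row 16 the lowest in both classes, so that the classes overlapped although Ccl5-high cells were higher in 4 of 4 rows. In the odd rows it was 42.9 to 69.2 CPM in Rag1+ cells, 61.9 to 100.9 CPM in Ikzf2+ cells and 71.9 to 129 CPM in the remaining cells, and highest in Cd79a+ (135 to 250 CPM) and Cst3+ cells (134 to 206 CPM). The summed level of 18 immediate early and dissociation genes, which rise when tissue is taken apart, was 10075, 11041, 7849 and 8297 CPM in rows 12, 14, 16 and 18. Row 14 was the highest and row 16 the lowest in this sum as in Klf6, while rows 12 and 18 changed places, and its part in the levels of Klf6 and Klf3 was not tested.

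Klf13 varied least. It had 140 to 177 CPM in Izumo1r+ cells, 168 to 184 CPM in other cells and 143 to 194 CPM in Ccl5-high cells. In the odd rows it was 116 to 129 CPM in Rag1+ cells, 107 to 125 CPM in Ikzf2+ cells and 100 to 118 CPM in the remaining cells. All row values of the even rows lay above those of these odd-row classes.

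**Figure D1:**
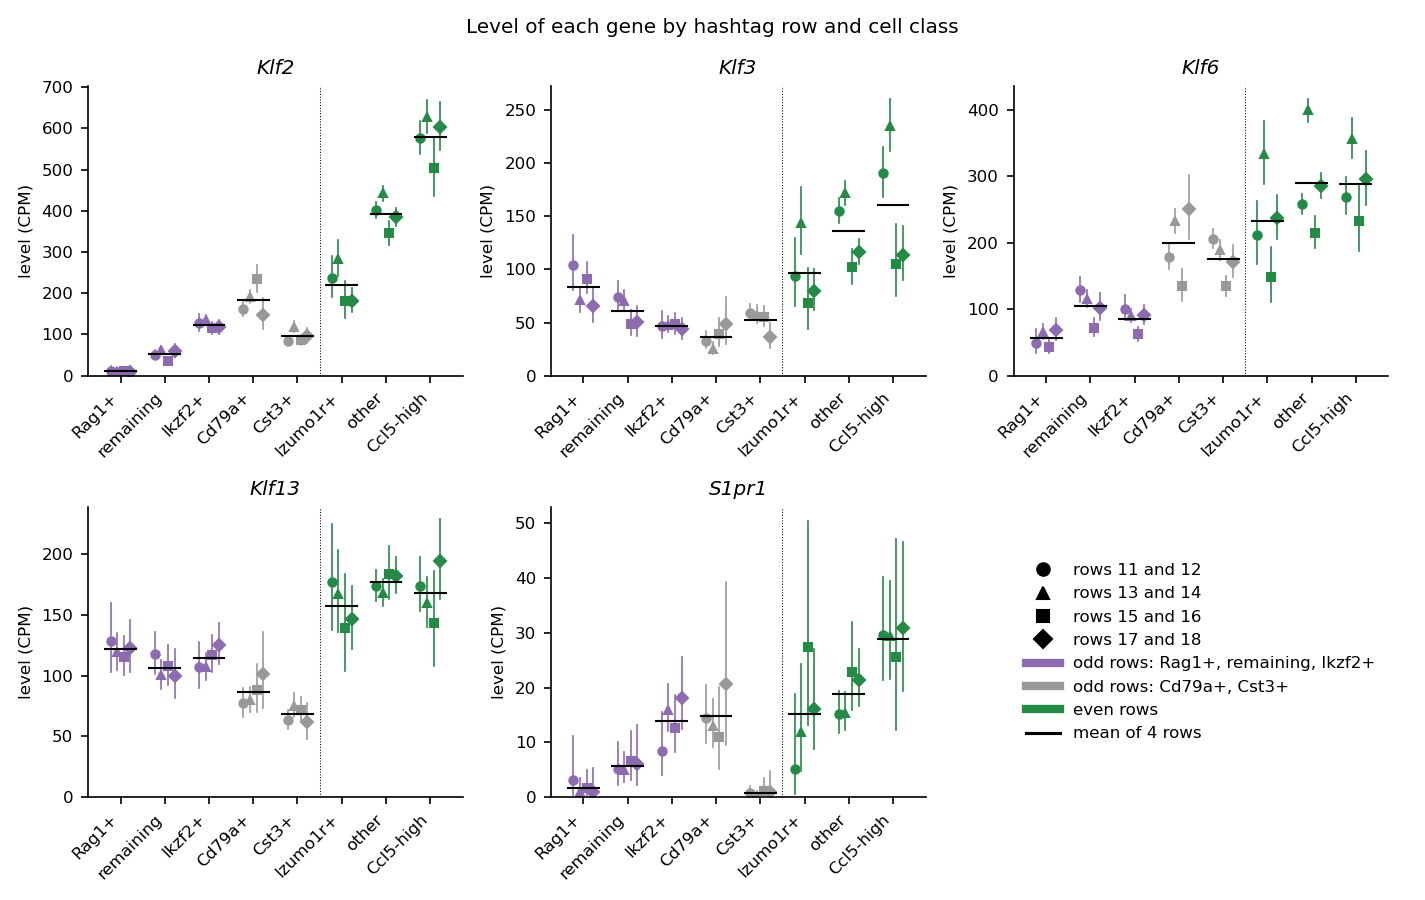
Level of each gene in CPM (vertical axis, from 0) in the 5 cell classes of the odd hashtag rows and the 3 classes of the even rows (horizontal axis), with 1 marker per hashtag row. Klf2 runs from 8.53 CPM in Rag1+ cells to 628 CPM in Ccl5-high cells without overlap between Izumo1r+, other and Ccl5-high cells, whereas the values of Klf13 overlap between these 3 classes.

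The classes of the even rows were then compared within rows, which asks whether the egress genes differ between cells rich in the effector chemokine Ccl5 and cells with Izumo1r, a marker of the iNKT1a subset. Summed counts were tested with edgeR's quasi-likelihood test, with the row as a block and Benjamini-Hochberg adjustment over 7025 genes. Klf2 was 1.43 higher on the log2 scale in Ccl5-high cells (standard error 0.09), a 2.70-fold difference (edgeR, adjusted p = 1.36e-17). Per row the log2 difference, with a pseudocount of 1 CPM, was 1.28, 1.15, 1.48 and 1.72 in rows 12, 14, 16 and 18. Klf3 rose by 0.75 (standard error 0.12; edgeR, adjusted p = 7.84e-06), with 1.02, 0.71, 0.61 and 0.51 in the rows. Klf6 rose by 0.32 (standard error 0.09; edgeR, adjusted p = 0.0241), or 1.25-fold, with 0.35, 0.10, 0.65 and 0.32 in the rows. S1pr1 rose by 1.06 (standard error 0.30; edgeR, adjusted p = 0.0189) and was higher in 3 of 4 rows, with 2.30, 1.25, -0.09 and 0.89. Klf13 differed by 0.13 (95% interval -0.09 to 0.35; edgeR, adjusted p = 0.668). Thus 4 of the 5 genes were called, all higher in Ccl5-high cells, where 5.98% of all tested genes were called, 3.23% higher and 2.75% lower.

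Klf2 and Klf3 kept their calls in all 17 alternatives run for this comparison, including those that leave out a row. The call of S1pr1 was lost without row 12 (0.83, edgeR adjusted p = 0.150), row 14 (0.98, 0.0918) or row 18 (1.11, 0.0797) and with DESeq2 (1.09, adjusted p = 0.643). It was also lost without the row block and with a limit of at least 2 Ccl5 UMIs, in all 6 of 16 alternatives. S1pr1 was too low to test with cells thinned to 2000 UMIs. The call of Klf6 was lost without row 12 (0.31, edgeR adjusted p = 0.0768), row 16 (0.26, 0.0851) or row 18 (0.31, 0.141), with DESeq2 (0.35, 0.487), with thinned cells (0.18, 0.679), without the row block (0.33, 0.382), and with limits of at least 8 Ccl5 UMIs (0.24, 0.201) or 1 Izumo1r UMI (0.19, 0.135), in all 8 of 17 alternatives. Without row 18 the count of genes called was 144 higher and 109 lower, against 227 and 193.

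**Figure D2:**
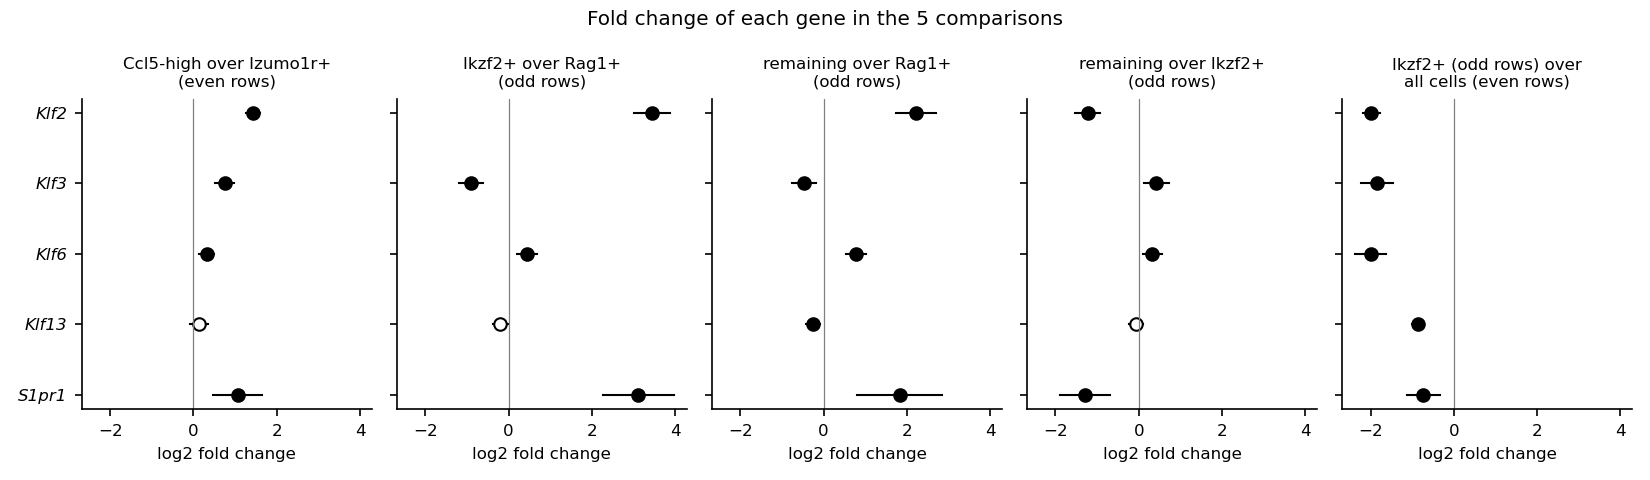
Log2 fold change (horizontal axis) of the 5 genes (rows of each panel) in the 5 comparisons (panels), with the 95% interval from edgeR as a line. Filled points have an adjusted p under 0.05 and open points do not. Klf2 is called in every panel, and Klf13 has the smallest fold change of the 5 genes in the first 4 panels.

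Ccl5 was also used as a scale rather than as a gate, a division chosen after the data had been seen. Among 5206 even-row cells thinned to 2000 UMIs, Klf2 was 386 CPM in 3474 cells with no Ccl5 UMI, 412 CPM in 577 cells with 1, 501 CPM in 440 cells with 2 or 3 and 663 CPM in 715 cells with 4 or more. The exact Poisson intervals of the lowest and highest of these levels were 371 to 401 and 621 to 707 CPM. S1pr1 was 16.7, 21.7, 12.5 and 40.6 CPM over the same steps, with row values of 17.9 to 55.0 CPM in the last step that overlapped with those of the first (14.2 to 21.2 CPM). Klf3 was 131, 166, 163 and 177 CPM, and its row values in the last step (68.8 to 221 CPM) spanned those of cells with no Ccl5 UMI (89.3 to 155 CPM). Klf6, at 306, 323, 341 and 290 CPM, and Klf13, at 174, 186, 170 and 176 CPM, followed no order. Along Izumo1r, Klf2 was 483 CPM in cells with no Izumo1r UMI, 302 CPM with 1 and 173 CPM with 2 or more. Klf3 went the same way with 155, 116 and 77.6 CPM. S1pr1 was 21.4, 16.3 and 13.4 CPM, the last from 9 UMIs (exact Poisson interval 6.14 to 25.5) and overlapping with the first (18.4 to 24.8). Klf6 was 309, 332 and 257 CPM and Klf13 176, 180 and 154 CPM.

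**Figure D3:**
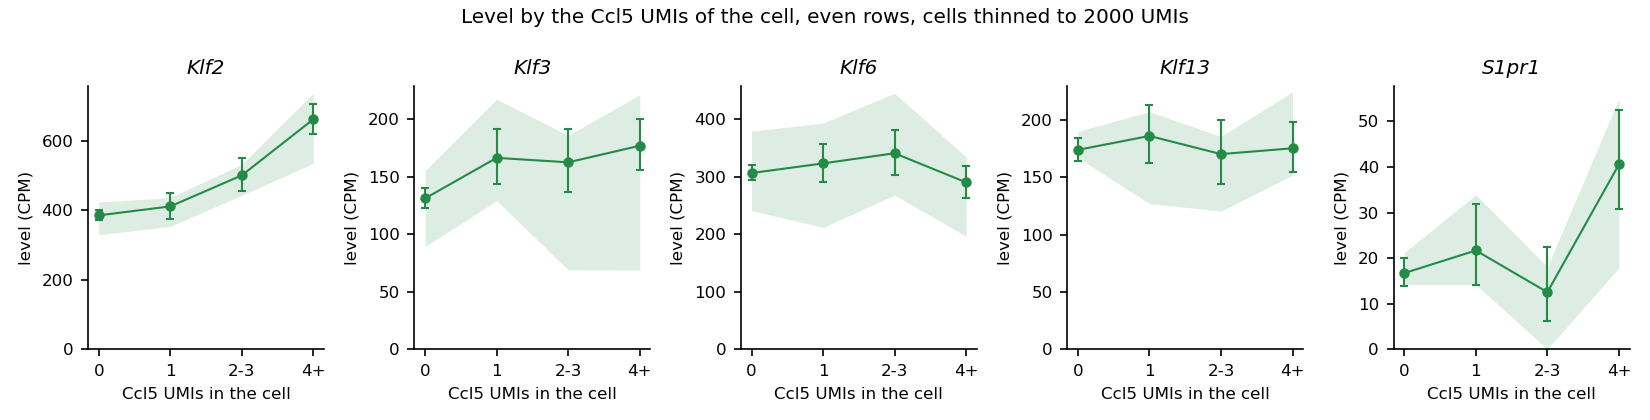
Level of each gene (CPM, vertical axis, from 0) in even-row cells thinned to 2000 UMIs, by the number of Ccl5 UMIs in the cell (horizontal axis). Points are sums over all 4 even rows, bars are exact Poisson intervals that cover counting error, and the band spans the lowest and highest row. Klf2 runs from 386 to 663 CPM, and S1pr1 reaches 40.6 CPM in cells with 4 or more Ccl5 UMIs.

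In the odd rows, Rag1+ cells, with transcripts of double positive thymocytes, were compared with Ikzf2+ cells. Ikzf2 encodes Helios, a factor raised after strong receptor signals. Klf2 was 3.45 higher on the log2 scale in Ikzf2+ cells (standard error 0.20), a 10.9-fold difference (edgeR, adjusted p = 7.69e-11). S1pr1 was 3.12 higher (95% interval 2.28 to 3.97; edgeR, adjusted p = 3.49e-06), with 125 UMIs against 8, so that the size of the change is set by few counts in Rag1+ cells. Klf6 rose by 0.45 (edgeR, adjusted p = 0.00447). Klf3 fell by 0.90 (edgeR, adjusted p = 3.08e-05), and Klf13 differed by -0.19 (95% interval -0.37 to -0.02; edgeR, adjusted p = 0.0670). Of the 5 genes, 3 were called higher and 1 lower, where 41.1% of all tested genes were called, 21.2% higher and 19.9% lower, or 2264 and 2123 genes (2859 and 1374 with library sizes alone), so that the count says little about these genes. With cells thinned to 2000 UMIs, S1pr1 was 2.31 higher with an adjusted p of 0.0587 from edgeR, and Klf6 was -0.44 with an adjusted p of 0.250. Rag1+ cells had a median of 3684.5 to 15274 UMIs by row and Ikzf2+ cells 4611 to 5962, and a sum of unthinned cells is led by the deepest ones.

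The remaining cells of the odd rows stood between these classes for Klf2. They were 2.22 above Rag1+ cells (edgeR, adjusted p = 9.43e-07) and 1.23 below Ikzf2+ cells (log2 fold -1.23; edgeR, adjusted p = 4.29e-06). S1pr1 differed in the same way, by 1.83 from Rag1+ cells (edgeR, adjusted p = 0.0111) and by -1.29 from Ikzf2+ cells (adjusted p = 0.00355). The first of these calls was lost without row 13 (1.66, adjusted p = 0.0574), 15 (1.88, 0.0523) or 17 (1.68, 0.0622), and the second without row 13 (-1.10, 0.0722). Klf3 was 0.48 lower than in Rag1+ cells (log2 fold -0.48; edgeR, adjusted p = 0.0183) and 0.43 higher than in Ikzf2+ cells (adjusted p = 0.0436). Klf6 was higher than in both, by 0.78 (adjusted p = 8.04e-05) and 0.33 (adjusted p = 0.0389). Its call against Rag1+ cells was lost in 2 of 14 alternatives. These were thinned cells, where the difference was 0.025, and a limit of at least 2 Rag1 UMIs. Klf13 differed by -0.26 from Rag1+ cells (adjusted p = 0.0368) and by -0.06 from Ikzf2+ cells (95% interval -0.23 to 0.11; adjusted p = 0.679). All 5 genes were called against Rag1+ cells and 4 of 5 against Ikzf2+ cells, where 21.1% and 16.6% of all tested genes were called. The calls against Rag1+ cells were 12.3% higher and 8.76% lower, or 1316 and 936 genes (1544 and 409 with library sizes alone). Those against Ikzf2+ cells were 8.22% higher and 8.38% lower, or 878 and 895 genes (570 and 920). Under that scaling Klf3 and Klf13 lost their calls against Rag1+ cells, and Klf3 and Klf6 against Ikzf2+ cells. These comparisons share the Rag1+, Ikzf2+ and remaining sums with each other and are no separate support.

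The smaller of these differences depended on single rows. Klf3 against Rag1+ cells lost its call without row 11 (-0.45, edgeR adjusted p = 0.0815) or row 15 (-0.32, 0.212), and Klf13 without any 1 of the 4 rows (adjusted p 0.0671 to 0.183). Against Ikzf2+ cells, Klf3 lost its call without any 1 of the rows (adjusted p 0.0518 to 0.303) and Klf6 without row 13 (0.29, adjusted p = 0.255), 15 (0.34, 0.130) or 17 (0.36, 0.0663). Klf2 kept its call in every alternative of both comparisons.

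Set against all even-row cells, the Ikzf2+ cells were lower in all 5 genes. The log2 fold change was -1.98 for Klf2 (edgeR, adjusted p = 1.24e-10), -1.84 for Klf3 (adjusted p = 2.78e-07), -2.0 for Klf6 (adjusted p = 6.94e-08), -0.85 for Klf13 (adjusted p = 2.44e-08) and -0.73 for S1pr1 (adjusted p = 0.00231). In this comparison 66.5% of all tested genes were called, 33.1% higher and 33.4% lower, or 3426 and 3456 genes (4897 and 2391 with library sizes alone), and row and class differ together and cannot be told apart. Scaling by library size alone moved the median gene by 0.25, and the 5 folds were then -1.72, -1.57, -1.74, -0.59 and -0.47, all still called. The row values of S1pr1 overlapped (8.48 to 18.2 against 17.8 to 24.1 CPM), and with cells thinned to 2000 UMIs its fold was 0.32 in the opposite direction (adjusted p = 0.341). The direction of S1pr1 between these cells was thus not settled. For the 4 Klf genes the row values did not overlap. Even-row cells had 97.2 to 183 CPM of Klf3 and 207 to 384 CPM of Klf6, against at most 48.2 and 100.9 CPM in Ikzf2+ cells. The dissociation list, with 14 of its 18 genes lower and 3 higher in Ikzf2+ cells, moved with Klf6, and its part was not tested.

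S1pr1 was next read against the Klf2 UMIs of the same cell, at 2000 UMIs per cell. Over all even-row cells it was 14.2 CPM in 2675 cells with no Klf2 UMI, 17.6 CPM in 1360 cells with 1, 32.7 CPM in 658 cells with 2 and 41.9 CPM in 513 cells with 3 or more, from 76, 48, 43 and 43 UMIs. In the even rows the row values of the first step (6.64 to 19.6 CPM) did not overlap with those of the last step (36.2 to 67.6 CPM), nor at 1500 UMIs per cell (10.8 to 19.1 and 25.3 to 66.7 CPM). Within Ccl5-high cells alone the levels were 21.4, 32.3, 26.6 and 55.9 CPM, and within the other cells of these rows 14.3, 12.2, 34.0 and 36.7 CPM. In Izumo1r+ cells they were 6.54, 21.5, 45.5 and 0 CPM, the last from 16 cells.

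The same reading in Ikzf2+ cells, added after the data had been seen, gave 5.48 CPM of S1pr1 in 821 cells with no Klf2 UMI (9 UMIs; exact Poisson interval 2.51 to 10.4), 64.3 CPM in 140 cells with 1 (38.1 to 102), 135 CPM in 48 cells with 2 (72.1 to 232) and 125 CPM in 44 cells with 3 or more (62.4 to 224). Cells were pooled over rows here. Only 1 row had at least 20 cells in the step of 2 and 0 rows in the last, so these steps show no spread between rows. With cells thinned to 1500 UMIs the levels were 14.9, 57.1, 75.8 and 222 CPM in Ikzf2+ cells, from 20, 12, 5 and 7 UMIs, and 16.7, 23.0, 28.2 and 36.2 CPM in even-row cells. The level of cells without a Klf2 UMI was thus not settled between Ikzf2+ and even-row cells. Read the other way, Klf2 was 773 CPM in the 44 Ikzf2+ cells with an S1pr1 UMI (600 to 980) and 161 CPM in the 1009 without (144 to 179). In the even rows it was 661 CPM in 196 cells with an S1pr1 UMI and 428 CPM in those without. The remaining cells of the odd rows had 5.39, 28.3, 200 and 174 CPM of S1pr1 over the Klf2 steps, from 742, 53, 10 and 23 cells and 8, 3, 4 and 8 UMIs. At 1500 UMIs per cell these were 7.20, 0, 238.1 and 103 CPM. These are descriptions of sparse counts, and the part of cell type mixture in them was not tested.

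Some other genes of the pathway rose along the Klf2 steps and others did not. S1pr4, another S1P receptor of lymphocytes, had 84.5, 117, 125 and 126 CPM in even-row cells and 27.4, 57.1, 115 and 90.9 CPM in Ikzf2+ cells. Itgb7, an integrin chain of gut-homing T cells, had 37.1, 104, 125 and 284 CPM in Ikzf2+ cells. In even-row cells Itgb7 was 295, 287.5, 312 and 332 CPM. Il7r, the interleukin 7 receptor chain, went from 816 to 975 CPM in even-row cells. In Ikzf2+ cells it was 53.0, 67.9, 115 and 56.8 CPM, not in step order. Cd69 followed no order, with 119, 125, 119 and 129 CPM in even-row cells and 122, 150, 115 and 90.9 CPM in Ikzf2+ cells. Ccr7 had 1.68, 3.31, 1.52 and 2.92 CPM in even-row cells, from 9, 9, 2 and 3 UMIs. Klf3 was 118, 165, 157 and 210 CPM in even-row cells and 48.7, 57.1, 135 and 170 CPM in Ikzf2+ cells, where at 1500 UMIs per cell it was 54.4, 114, 75.8 and 222 CPM, not in step order. Klf6 went from 286 to 365 CPM and Klf13 was 180, 164, 170 and 188 CPM in even-row cells. Fos, an immediate early gene, went from 180 to 489 CPM in Ikzf2+ cells and from 306 to 395 CPM in even-row cells. Jun, another such gene, followed no order, with 267, 379, 354 and 216 CPM in Ikzf2+ cells and 425, 468, 403 and 486 CPM in even-row cells. The part of immediate early genes in these values was not tested.

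**Figure D4:**
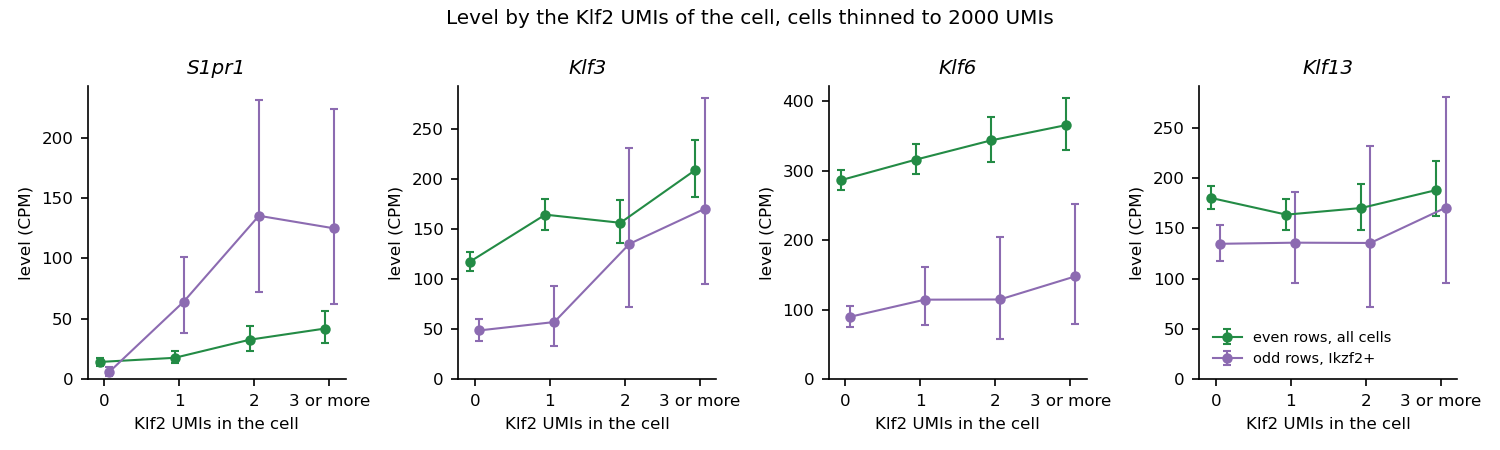
Level of S1pr1, Klf3, Klf6 and Klf13 (CPM, vertical axis, from 0) by the number of Klf2 UMIs in the cell (horizontal axis), in all even-row cells and in Ikzf2+ cells of the odd rows, thinned to 2000 UMIs. Bars are exact Poisson intervals of the summed counts. S1pr1 is 5.48 CPM (9 UMIs) in Ikzf2+ cells without a Klf2 UMI and 125 CPM in those with 3 or more, which become 14.9 and 222 CPM at 1500 UMIs per cell, and 14.2 and 41.9 CPM in even-row cells.

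Of the S1P receptors, S1pr1 and S1pr4 could be tested in the even rows and both were called. Of all tested genes 3.23% were called higher and 2.75% lower, and the S1pr1 call was lost in 6 of 16 alternatives. S1pr4 was 0.63 higher in Ccl5-high cells (edgeR, adjusted p = 0.000715), with 105 to 133 CPM against 71.1 to 88.6 CPM. Of 6 tested genes of S1P metabolism and receptor handling, Cd69 was the 1 called, 0.99 higher in Ccl5-high cells (edgeR, adjusted p = 1.8e-07), with 87.1 to 178 CPM against 52.0 to 105 CPM. The receptor S1pr1 and Cd69, whose product draws it into the cell, were thus both higher in the same class.

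Among 8 tested egress, homing and quiescence genes, 5 rose and 2 fell in Ccl5-high cells, where 3.23% of all tested genes rose and 2.75% fell. Itgb1, the beta 1 integrin chain, rose by 1.37 (edgeR, adjusted p = 1.1e-13) from 82.1 to 152 CPM to 249 to 322 CPM. Rasa3, a GTPase-activating protein for RAS and RAP1, rose by 0.85 (adjusted p = 1.04e-05), and Foxo1 by 0.71 (adjusted p = 0.00483), with 66.6 to 86.7 against 35.6 to 57.3 CPM. Itgb7 rose by 0.44 (adjusted p = 0.000315) and Il7r by 0.38 (adjusted p = 2.67e-05). Itgal, the integrin chain of LFA-1, had a log2 fold of -0.36 (adjusted p = 0.0119), and Cxcr3, a chemokine receptor of type 1 cells, of -0.40 (adjusted p = 0.00271). Foxo3 was at -0.02. The median of the list was 0.41, beside -0.01 over all tested genes. DESeq2 called 3 of the 8 genes and neither of the S1P receptors. Ccr7, Cxcr4 and Arrb1 were not tested in this comparison for low counts.

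Of the 17 KLF family genes 7 were tested, and Klf2, Klf3 and Klf6 were those called, where 5.98% of all tested genes were called. Klf4 was 0.41, Klf16 0.71 and Klf9 -0.50, with adjusted p-values of 0.636, 0.285 and 0.516 from edgeR. Of 3 genes of the ERK5 to MEF2 input and 5 KLF corepressors and partners, 0 were called by edgeR, with 0 at an unadjusted p under 0.05 and 0 by DESeq2 in either list. Of 16 tested dissociation genes, Fos (0.30, adjusted p = 0.0386) and Hspa1a (0.42, adjusted p = 0.0186) were called, with a list median of -0.05, and 7 of the 16 had an unadjusted p under 0.05, while DESeq2 called 0. Their part in the differences of Klf2 and Klf6 was not tested.

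The cell type lists describe the compared cells, where 3.23% of all tested genes were called higher and 2.75% lower in Ccl5-high cells. Of 8 stage 3 iNKT1 genes, 4 were higher in Ccl5-high cells, among them Gzma (3.53) and Ifng (0.82) and, by the gate, Ccl5, while Klrb1c was lower (-0.28). All 3 iNKT1a genes were lower, Il4 by -1.70 and Icos by -1.44 besides Izumo1r, which the gate used. Of 7 stage 0 genes 4 were lower, among them Zbtb16 (-1.82) and Tnfrsf9 (-1.12), and of 2 genes of double positive thymocytes Cd4 (-1.80). Zbtb16 and Cd4 are not particular to those stages. The paper takes falling Zbtb16 as a sign of iNKT1 development within stage 3, and describes iNKT1a cells as mostly CD4+. Lef1 (-0.52) and Satb1 (-0.31) of the 3 conventional mature thymocyte genes were lower. Of the B cell, myeloid, gamma-delta T and cycling genes tested (2, 2, 2 and 4), 0 were called by edgeR or DESeq2, with 0, 1, 1 and 2 at an unadjusted p under 0.05, and the regulatory T cell genes were too low to test.

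**Figure D5:**
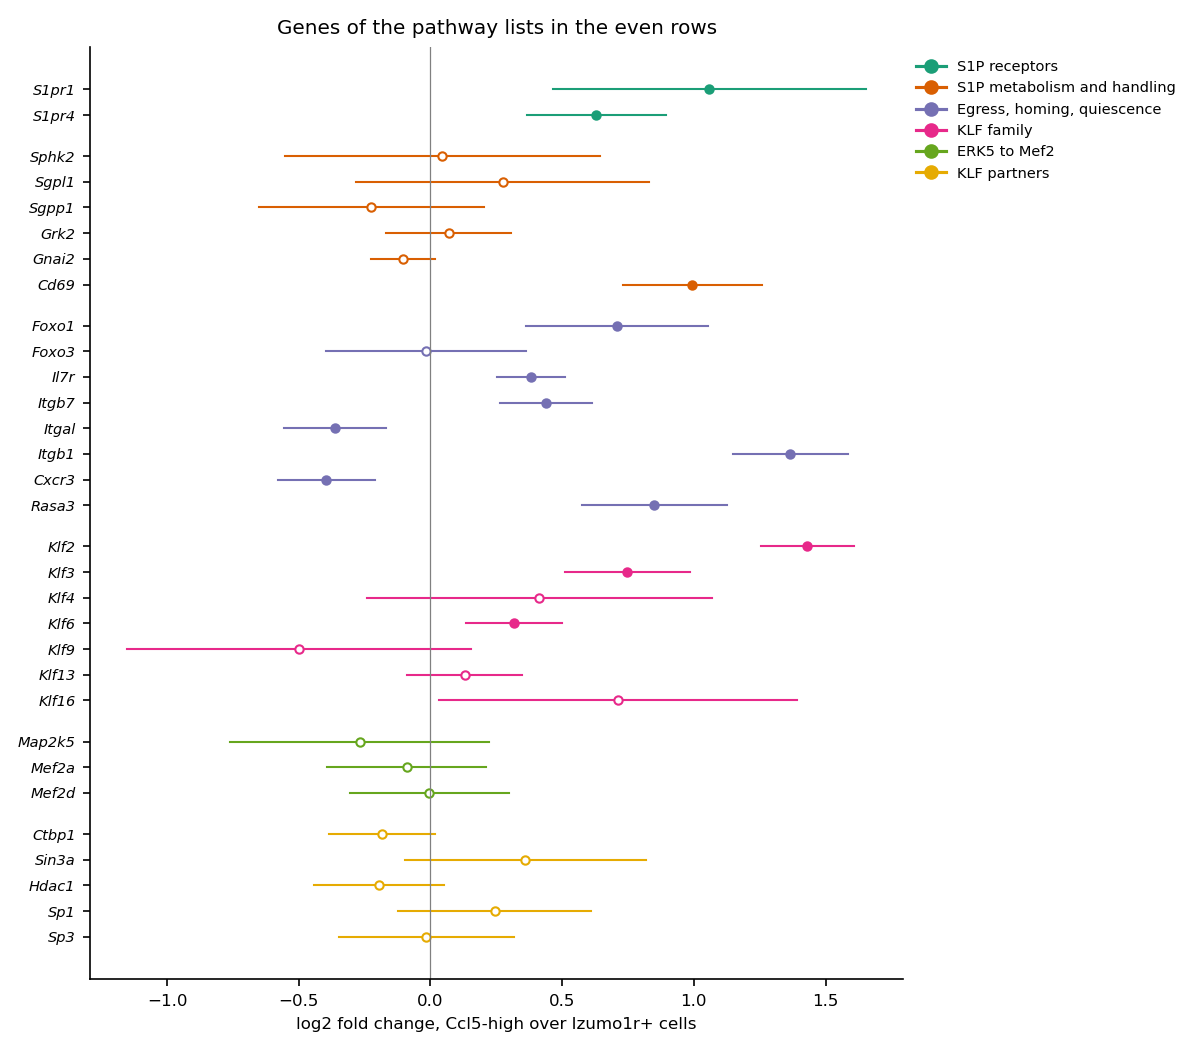
Log2 fold change in Ccl5-high over Izumo1r+ cells of the even rows (horizontal axis) for each tested gene of 6 lists, coloured by list, with the 95% interval from edgeR as a line. Filled points have an adjusted p under 0.05. Itgb1 (1.37) and Klf2 (1.43) have the largest fold changes, and the genes of the ERK5 to MEF2 and partner lists are all open.

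In the odd rows, 10 of 12 egress and homing genes rose in Ikzf2+ over Rag1+ cells and 0 fell, with a median of 1.05 beside 0.03 over all tested genes, of which 21.2% rose and 19.9% fell. Foxo1 rose by 1.83 (edgeR, adjusted p = 1.15e-06), from 11.4 to 27.6 CPM in Rag1+ cells to 60.2 to 79.4 CPM. S1pr4 rose by 1.76 (adjusted p = 8.25e-05) and S1pr2 fell by 1.08 on the log2 scale. Of 5 tested genes of the ERK5 to MEF2 input, 1 was called higher and 1 lower, with a list median of 0.001. The lower one, Mef2a, fell by 0.75 (edgeR, adjusted p = 7.54e-06). Klf9 was 12.7 to 21.2 CPM in Ikzf2+ cells and 0 to 2.85 CPM in Rag1+ cells (adjusted p = 2.27e-05). Foxo1 and Klf9 were lower again in the remaining cells than in Ikzf2+ cells, by -1.26 and -1.74. Ccr7, the chemokine receptor of conventional mature thymocytes, was higher in the remaining cells than in Ikzf2+ cells, with 17.7 to 37.5 CPM against 3.90 to 17.6 CPM (1.45; edgeR, adjusted p = 0.000782). Against all even-row cells, Ikzf2+ cells were lower in Il7r (-4.22) and Cxcr3 (-6.16) and higher in Cxcr4 (1.56), while Foxo1 differed by -0.06 (95% interval -0.28 to 0.15).

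The genes whose profile was most like each member were sought over the 32 sums of row and class, by Pearson correlation of log2(CPM + 10) over 9315 genes. The sums share 1 library, and those of a row share its cells. Pbxip1 (0.95), Neurl3 (0.95), Tmem30a (0.95), Rasa3 (0.94) and Msn (0.94) were most like Klf2. Armc7 (0.90), Rps16, Galnt10, Il12rb2 and Acss2 were most like Klf3, and Junb (0.94), Runx3, Cd82 and Sh3bgrl3 were among those most like Klf6. Spata13 (0.94), Stim1, Sash3, Pag1 and Gm20186 were most like Klf13, and Card6 (0.89), Macf1, mt-Atp8, Gimap8 and Ccnd2 most like S1pr1. Between members, Klf2 correlated with Klf6 at 0.86 and with S1pr1 at 0.79 over all 32 sums. Within the odd-row sums these values were 0.72 and 0.61, and within the even-row sums 0.61 and 0.52. Klf2 and Klf3 correlated at 0.75 over the 12 even-row sums and at -0.80 over the 20 odd-row sums. Over these sums the pair thus ran together in the even rows and in opposite directions in the odd rows. The odd-row sums include Cd79a+ and Cst3+ cells, and the part of cell type mixture was not tested. Within Ikzf2+ cells thinned to 2000 UMIs, Klf3 went from 48.7 CPM without a Klf2 UMI to 170 CPM with 3 or more.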

How the data were processed

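The authors sequenced 1 droplet library and 1 hashtag library, and the submitters' processing notes name Cell Ranger, Seurat and mm10. The deposited counts are UMIs per gene or hashtag row and barcode, not normalized, for 16179 barcodes. The 5 genes, the classes and the gene lists were chosen with earlier results of these data known, some lists by that earlier work. Barcodes of at least 1000 genes, at most 5% mitochondrial UMIs and a hashtag row with at least 80% of at least 10 UMIs on the 8 rows in use were kept. This removed barcodes with hashtag UMIs spread over rows, but doublets between rows with unequal hashtag counts can pass. Doublets within a row were not called (cells of at most 4000 genes were an alternative). UMIs were summed per row and class of at least 20 cells, and tested in edgeR 4.0.16 (R 4.3.3) with glmQLFit, TMM, filterByExpr and the hashtag row as a block, except for Ikzf2+ against even-row cells, which lie in different rows. A gene was called at a Benjamini-Hochberg adjusted p under 0.05 over all tested genes, in 5 comparisons. The test was also run on simulated counts with 200 known changes. CPM are per 1000000 gene UMIs of the sum, with exact Poisson intervals, and shares have Clopper-Pearson intervals, both at 95% and for counting error only. Free RNA was not removed. For levels along another gene, cells were thinned to 2000 UMIs and shallower cells left out. The genes named are the 5, the list genes called in Ccl5-high against Izumo1r+ cells or given for their role, and the 5 most like each member among genes of at least 20 CPM in 1 sum. Alternatives were other cell filters, class limits, thinning, DESeq2 1.42.0, size factors, no low-count filter, no block and leaving out each row. Scaling by library size alone, and even-row cells without Cd79a, Cst3 or Rag1 matches, were added after seeing the data. Python 3.11.15 was used with numpy 2.4.6, pandas 2.3.3 and scipy 1.17.1. The results for 2 genes are left out of the text.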

Additional observations from a re-analysis of the deposited data

Results flagged for a closer look

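Beside the 8 hashtag rows in use, the other 12 rows of the hashtag table held 25599 UMIs, 0.0734% of all hashtag UMIs, beside 34861260 on the rows 11 to 18. Most of them lay on row 1 (12255 UMIs) and row 4 (11854 UMIs). No comparison uses these rows, and no control sample gives their background, so signal and background cannot be told apart in them. Of 40 sets of 4 row values (5 genes in 8 classes) tested for a row far from the others, 0 stood out.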

How the results depend on the processing

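Of 404 values of the 5 genes under alternatives, 337 kept their direction and side of the threshold, 59 lost the call, 3 gained it and 5 reversed. Klf2 kept its call in every alternative of all 5 comparisons, and Klf3 in those of Ccl5-high against Izumo1r+, Ikzf2+ against Rag1+ and Ikzf2+ against even-row cells. The values that changed are log2 fold changes with the adjusted p of edgeR (of DESeq2 where named), and the cause was not tested. With cells thinned to 2000 UMIs, Ccl5-high against Izumo1r+ cells had 89 genes called higher, 68 genes called lower and Klf6 at 0.18 (adjusted p = 0.679). Likewise, Ikzf2+ against Rag1+ cells had 622 genes called higher, 620 genes called lower, Klf6 at -0.44 (adjusted p = 0.250, reversed) and S1pr1 at 2.31 (adjusted p = 0.0587). Remaining against Rag1+ cells had 311 genes called higher, 193 genes called lower, Klf6 at 0.025 (adjusted p = 0.976), Klf13 at -0.36 (adjusted p = 0.298) and S1pr1 at 0.71 (adjusted p = 0.753) there. Remaining against Ikzf2+ cells had Klf3 at -0.015 (adjusted p = 0.999, reversed) there. Ikzf2+ against even-row cells had 1712 genes called higher, 1832 genes called lower and S1pr1 at 0.32 (adjusted p = 0.341, reversed) there. With DESeq2, Ccl5-high against Izumo1r+ cells had 78 genes called higher, 53 genes called lower, Klf6 at 0.35 (adjusted p = 0.487) and S1pr1 at 1.09 (adjusted p = 0.643). In this setting, remaining against Rag1+ cells had Klf13 at -0.25 (adjusted p = 0.0769). Remaining against Ikzf2+ cells had Klf3 at 0.42 (adjusted p = 0.0749) and Klf6 at 0.33 (adjusted p = 0.0546) there. Without the replicate block, which pairs the classes of a hashtag row, Ccl5-high against Izumo1r+ cells had 150 genes called higher, 107 genes called lower, Klf6 at 0.33 (adjusted p = 0.382) and S1pr1 at 0.99 (adjusted p = 0.0552). In addition, Ikzf2+ against Rag1+ cells had Klf6 at 0.47 (adjusted p = 0.0847). Remaining against Rag1+ cells had Klf3 at -0.47 (adjusted p = 0.0510) there. Remaining against Ikzf2+ cells had 552 genes called higher, Klf3 at 0.45 (adjusted p = 0.0814) and Klf6 at 0.33 (adjusted p = 0.303) there. With Ccl5 of at least 2 UMIs, Ccl5-high against Izumo1r+ cells had S1pr1 at 0.84 (adjusted p = 0.0902). With Ccl5 of at least 8 UMIs, Ccl5-high against Izumo1r+ cells had Klf6 at 0.24 (adjusted p = 0.201). With Izumo1r of at least 1 UMI, Ccl5-high against Izumo1r+ cells had Klf6 at 0.19 (adjusted p = 0.135). With at most 4000 genes per cell, Ikzf2+ against Rag1+ cells had Klf6 at 0.18 (adjusted p = 0.420). Then remaining against Rag1+ cells had 637 genes called higher, 355 genes called lower, Klf13 at -0.33 (adjusted p = 0.135) and S1pr1 at 1.48 (adjusted p = 0.106). Ikzf2+ against even-row cells had S1pr1 at -0.13 (adjusted p = 0.561) there. With library sizes alone in place of TMM, Ikzf2+ against Rag1+ cells had 1374 genes called lower. At that setting, remaining against Rag1+ cells had 409 genes called lower, Klf3 at -0.40 (adjusted p = 0.0714) and Klf13 at -0.18 (adjusted p = 0.230). Remaining against Ikzf2+ cells had 570 genes called higher, Klf3 at 0.39 (adjusted p = 0.100) and Klf6 at 0.29 (adjusted p = 0.0996) there. With Ikzf2 of at least 1 UMI, remaining against Ikzf2+ cells had 259 genes called higher, 350 genes called lower, Klf3 at 0.17 (adjusted p = 0.613) and S1pr1 at -1.04 (adjusted p = 0.0964). With Ikzf2 of at least 4 UMIs, Ikzf2+ against Rag1+ cells had Klf6 at 0.31 (adjusted p = 0.0626). In this setting, remaining against Ikzf2+ cells had 1583 genes called higher and 1475 genes called lower. With Rag1 of at least 2 UMIs, Ikzf2+ against Rag1+ cells had Klf6 at 0.11 (adjusted p = 0.756) and Klf13 at -0.43 (adjusted p = 0.00108, now called). In addition, remaining against Rag1+ cells had 763 genes called higher, 409 genes called lower, Klf3 at -0.43 (adjusted p = 0.0695) and Klf6 at 0.29 (adjusted p = 0.176). With at least 90% of at least 20 hashtag UMIs, Ikzf2+ against Rag1+ cells had Klf13 at -0.23 (adjusted p = 0.0317, now called). With looser cell filters (500 genes, 10% mitochondrial UMIs), remaining against Rag1+ cells had Klf13 at -0.21 (adjusted p = 0.102). With the same choice, remaining against Ikzf2+ cells had Klf13 at 0.014 (adjusted p = 0.954, reversed) and S1pr1 at -0.76 (adjusted p = 0.0530). Without the filter on low counts, remaining against Rag1+ cells had Klf13 at -0.25 (adjusted p = 0.151). Median levels (CPM) that moved by over 1 SD of the rows were, with at most 4000 genes per cell, Klf2 in Cst3+ cells at 119, Klf2 in Rag1+ cells at 18.4, Klf2 in Ikzf2+ cells at 170, Klf2 in remaining cells at 80.5, Klf3 in Rag1+ cells at 113, Klf3 in Ikzf2+ cells at 49.8, Klf6 in Cst3+ cells at 220, Klf6 in Rag1+ cells at 84.1, Klf13 in Rag1+ cells at 169, Klf13 in Ikzf2+ cells at 128, Klf13 in remaining cells at 133, S1pr1 in Cst3+ cells at 0, S1pr1 in Rag1+ cells at 2.73, S1pr1 in Ikzf2+ cells at 22.0 and S1pr1 in remaining cells at 8.98, and, with looser cell filters (500 genes, 10% mitochondrial UMIs), Klf3 in Ikzf2+ cells at 50.3, Klf6 in remaining cells at 142, Klf13 in Rag1+ cells at 131, Klf13 in Ikzf2+ cells at 125, Klf13 in remaining cells at 124, Klf13 in other cells at 194 and S1pr1 in remaining cells at 7.38. With Spearman in place of Pearson correlation, 2, 3, 3, 2 and 0 of the 5 genes most like Klf2, Klf3, Klf6, Klf13 and S1pr1 were shared. Leaving out each row in turn gave these ranges. For Ccl5-high against Izumo1r+ cells, genes called higher 144 to 213, genes called lower 109 to 183, Klf6 0.26 to 0.44, Klf13 -0.0045 to 0.23 and S1pr1 0.83 to 1.36. For Ikzf2+ against Rag1+ cells, genes called lower 1408 to 2062 and Klf13 -0.23 to -0.16. For remaining against Rag1+ cells, genes called higher 836 to 1118, genes called lower 451 to 752, Klf3 -0.67 to -0.32, Klf13 -0.29 to -0.23 and S1pr1 1.66 to 2.09. For remaining against Ikzf2+ cells, genes called higher 234 to 1098, genes called lower 362 to 948, Klf3 0.32 to 0.52, Klf6 0.29 to 0.36 and S1pr1 -1.42 to -1.10. S1pr1 was too low to test in thinned even-row classes, and counts of 1 to 3 UMIs per row limit it in Rag1+ cells.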
